A study of Mus musculus with 4 samples.

Results

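The binding of p63, the transcription factor that builds and maintains stratified epithelia, was described around 10 genes of bone morphogenetic protein (BMP) signalling and its Id targets in newborn mouse epidermis. The 10 genes were Id1, Id2, Id3, Id4, Bmp2, Bmp4, Bmp7, Bmpr1a, Smad6 and Smad7. A peak was counted for a gene when its summit lay inside the gene body or within 50 kb of either end in the mm10 build. This gave 22 of 14593 peaks in a library labelled p63 alphaKO (alphaKO) and 35 of 10616 peaks in a wild-type library (WT). No peak was counted for more than 1 of the 10 genes. Both libraries came from dorsal epidermis at postnatal day 0, precipitated with the p63 antibody EPR570, with 1 ChIP library per genotype. The label does not spell out the alphaKO allele, and neither strain nor number of animals is given in the sources used here. Inputs were not used here.

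BMPs are secreted ligands that assemble receptors of type I, such as Bmpr1a, with receptors of type II, which then activate Smad transcription factors. The Id genes are direct targets of these Smads in many cells, and their products are small helix-loop-helix proteins without a DNA-binding region that block basic helix-loop-helix factors. Smad6 and Smad7 are inhibitory Smads that limit signalling as feedback. In skin, BMP signals act in hair follicle formation, in the rest of hair follicle stem cells and in keratinocyte differentiation, and in mouse keratinocytes p63 is known to sustain BMP signalling through control of Bmp7 and Smad7.

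The peaks carry values that the authors deposited. The pileup is the number of overlapping fragments at the summit, and the fold enrichment compares it with the peak caller's local background. Fold enrichment was used to rank peaks within a list, where percentile 100 is the strongest peak, and values of both lists are set side by side as a description. A peak had a partner when it shared at least 1 bp with a peak of the other list. With 1 library per genotype there is no replicate spread, and no difference between genotypes was tested. The 95% Wilson intervals cover counting error only.

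The 10 genes carried sites at 42 places, 15 of them in both lists, 7 in alphaKO alone and 20 in WT alone. Over the whole lists, 51.6% of alphaKO peaks and 33.4% of WT peaks had no partner. Bmp7, Bmpr1a, Bmp2, Id2, Id3 and Id4 had a peak in both lists, Smad7 in alphaKO only, Id1 and Smad6 in WT only, and Bmp4 in neither. Over all 21887 protein-coding genes of the annotation, 41.0% had a summit within the same distance in both lists, 14.1% in alphaKO only, 6.14% in WT only and 38.8% in neither. The sites were selected on the deposited summit positions of both lists, and the genes were proposed with earlier results in view, so the counts describe the loci and test nothing.

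**Figure D1:**
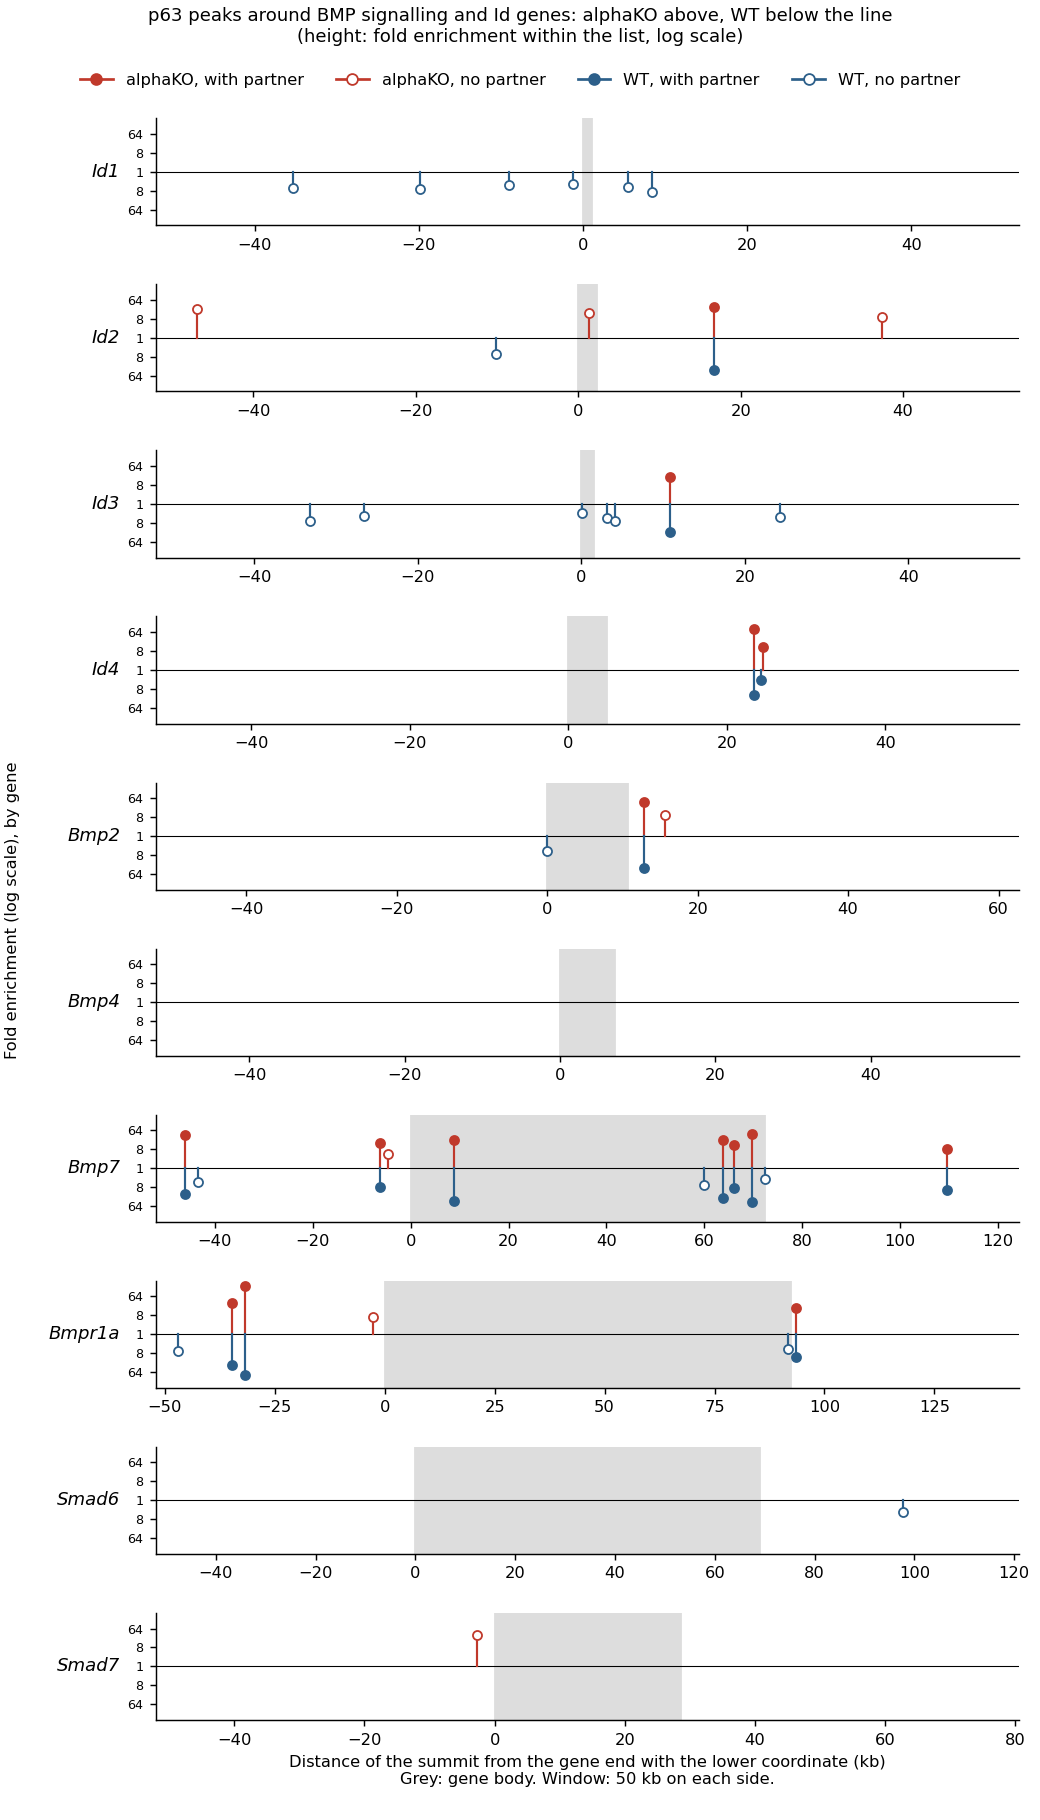
Positions of p63 summits around the 10 genes, in kb from the gene end with the lower coordinate, with fold enrichment in the alphaKO list drawn upwards and in the WT list drawn downwards on a log scale. Filled points have a partner in the other list and open points have none; Id1 shows 6 open WT points and no alphaKO point, and Bmp4 shows no point.

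The reference sequence at 2 listed starts is shown first because WT peaks lay on them and no alphaKO peak did. That of 2 others is shown because they hold the letters GGCGCC without a peak. GGCGCC is the core of the BMP response element described in the mouse Id1 promoter. Each sequence is the 250 bases before a listed start of the gene, 5′ to 3′ on the gene's strand. The sequences are from RefSeq in build GRCm38.p6, the assembly that mm10 names. For Bmpr1a the listed start lies inside the annotated gene body, and so do the printed bases. Capitals mark GGCGCC, and in Id3, which lacks it, matches to a loose form of the p53-family site (C, any 2 bases, G, any 6 bases, C, any 2 bases, G).

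Id3, chr4:136143572-136143821, plus strand: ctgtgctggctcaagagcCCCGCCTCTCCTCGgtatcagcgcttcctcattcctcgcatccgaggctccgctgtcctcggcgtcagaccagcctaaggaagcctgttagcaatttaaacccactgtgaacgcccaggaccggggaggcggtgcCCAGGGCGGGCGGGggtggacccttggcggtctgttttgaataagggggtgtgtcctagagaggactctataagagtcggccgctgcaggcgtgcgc
Bmpr1a, chr14:34502547-34502796, minus strand: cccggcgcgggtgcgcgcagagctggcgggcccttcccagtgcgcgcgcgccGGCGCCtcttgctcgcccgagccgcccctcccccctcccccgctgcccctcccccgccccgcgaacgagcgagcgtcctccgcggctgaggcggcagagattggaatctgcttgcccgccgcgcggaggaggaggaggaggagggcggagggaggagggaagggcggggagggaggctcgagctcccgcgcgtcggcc
Id2, chr12:25096093-25096342, minus strand: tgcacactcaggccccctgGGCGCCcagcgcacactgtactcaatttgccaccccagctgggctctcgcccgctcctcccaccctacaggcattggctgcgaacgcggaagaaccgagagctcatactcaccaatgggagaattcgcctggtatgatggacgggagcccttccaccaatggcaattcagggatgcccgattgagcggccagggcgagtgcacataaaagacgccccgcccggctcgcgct
Id4, chr13:48260866-48261115, plus strand: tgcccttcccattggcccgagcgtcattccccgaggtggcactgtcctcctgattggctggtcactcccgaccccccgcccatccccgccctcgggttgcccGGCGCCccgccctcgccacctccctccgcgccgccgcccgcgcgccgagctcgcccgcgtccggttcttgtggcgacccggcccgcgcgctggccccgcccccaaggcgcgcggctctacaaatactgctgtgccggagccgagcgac

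The promoter table held 6 of the 10 genes, namely Id2, Id3, Id4, Bmp4, Bmpr1a and Smad6, each as 300 bases that run to 50 bases after the start. No alphaKO peak overlapped any of the 6, and a WT peak overlapped 2, those of Id3 and Bmpr1a. Over all 32851 promoters, 2.67% were overlapped by an alphaKO peak and 5.46% by a WT peak, and 3.49% by a WT peak alone. The strict p53-family letters (CATG, any 6 bases, CATG) were in none of the 6 and in 0.712% of all promoters. The loose form was in 5 of the 6, all but Id2, and in 70.2% of all. GGCGCC was in Id2, Id4 and Bmpr1a and in 11.9% of all. The SMAD palindrome GTCTAGAC was in Smad6 and in 0.213% of all, and the AP-1 letters TGANTCA were in none of the 6 and in 7.81% of all. These letters read the same on both strands, and loose matches may overlap each other and GGCGCC. The 6 promoters had 60.0% to 79.3% G and C, where the median of all promoters was 52.7%. Letters in a reference sequence are a description and do not show binding. The sequence under the distal summits was not analysed here.

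Among the Id genes, Id1 and Id3 carried many weak WT peaks without a partner, Id2 carried more alphaKO than WT peaks, and Id4 carried a shared site high in the alphaKO list. The 4 genes had 7 alphaKO and 17 WT peaks, of which 3 alphaKO and 13 WT peaks had no partner, beside the 51.6% of alphaKO and 33.4% of WT peaks without one over the whole lists. With flanks of 100 kb in place of 50 kb, Id1 had 2 alphaKO and 7 WT peaks and Id3 had 5 alphaKO and 9 WT peaks.

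Id1, at chr2:152736251-152737410, had 0 alphaKO summits and 6 WT summits within 50 kb. The WT peak 7.28 kb above the gene (chr2:152744509-152744844) had a pileup of 73, a fold of 9.54 and −log10 q of 45.5, at percentile 56.6 of its list. The WT peak 4.31 kb above the gene had the higher pileup, 84, but a fold of 5.47, over a local background of 14.6. The remaining WT peaks lay 1.14, 9.04, 19.8 and 35.3 kb below the gene with folds of 4.00, 4.19, 6.47 and 5.69. All 6 peaks lay outside the gene body, and the outer pair on the lower side had H13, which encodes a signal peptide peptidase, as the nearest gene. The nearest alphaKO summit lay 55.2 kb from Id1, just outside the distance used, with a fold of 15.8 and no partner.

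Of the 21887 protein-coding genes, 255 (1.17%) had 0 alphaKO summits and at least 2 WT summits within 50 kb. That limit is lower than the 6 WT summits of Id1. This count was chosen after the Id1 values were seen, and it tests nothing. The local background of the WT peaks at Id1 was 5.80 to 14.6, beside a median of 8.31 over the WT list. A site absent from a list can lie below that list's threshold, and the lowest pileup of any listed peak was 14 in alphaKO and 13 in WT.

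Id3, at chr4:136143822-136145392, had 1 alphaKO peak and 7 WT peaks. The site in both lists lay 9.27 kb above the gene in alphaKO (chr4:136154482-136154867), with a pileup of 188 and a fold of 20.5 in alphaKO, beside a pileup of 236 and a fold of 20.8 in WT. It stood at percentile 63.4 of the alphaKO list and 87.4 of the WT list. The other 6 WT peaks had folds between 2.71 and 6.71. The weakest of them (chr4:136143682-136144004), with a pileup of 36 and −log10 q of 4.92, had its summit 74 bases after the gene start and covered 140 of the 250 bases printed for Id3. A pair of the others lay 1.60 and 2.63 kb above the gene, another pair 26.6 and 33.1 kb below it, and the last had the cell cycle factor gene E2f2 as its nearest gene.

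Id2, at chr12:25093799-25096092, had 4 alphaKO and 2 WT peaks. The shared site had its summit at the same base in both lists, 14.4 kb above the gene (chr12:25110240-25110681 in alphaKO). Its fold was 28.4 in alphaKO and 34.4 in WT, and its pileup was 220 in alphaKO and 274 in WT. Another alphaKO peak had its summit inside the Id2 gene, 917 bases after the listed start of the gene, with a fold of 14.9 and no partner. The remaining alphaKO peaks lay 35.1 kb above the gene, with a fold of 10.3, and 47.0 kb below it inside Kidins220, which encodes a substrate of protein kinase D, with a fold of 23.7. The other WT peak lay 10.2 kb below the gene with a fold of 5.91.

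Id4, at chr13:48261116-48266028, had 2 peaks in each list, all 18.6 to 19.7 kb above the gene and none at the printed promoter. The main site (chr13:48284335-48284869 in alphaKO) had a pileup of 700 and a fold of 91.9 in alphaKO, beside a pileup of 203 and a fold of 15.3 in WT, with summits 2 bp apart. It ranked 268 in the alphaKO list and 2352 in the WT list. The neighbouring site had a fold of 12.0 in alphaKO and 3.03 in WT, with summits 339 bp apart, the widest gap among the 15 shared sites. The local background at the main site was 6.63 in alphaKO and 12.3 in WT.

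Among the ligand genes, Bmp7 carried the densest set of sites, Bmp2 a strong site beside the gene, and Bmp4 none. Bmp7, at chr2:172868012-172940321, had 8 alphaKO and 10 WT peaks, 7 of which met in both lists. Its strongest site in each list lay inside the gene, 2.48 kb (WT summit) from the end with the higher coordinate, with a fold of 44.0 in alphaKO and 40.1 in WT. The WT peak there was 1155 bp wide (chr2:172936915-172938069) and the alphaKO peak 475 bp. The other shared sites inside the gene had folds of 23.2 in alphaKO and 27.4 in WT, of 12.5 in alphaKO and 8.53 in WT, and of 21.5 in alphaKO and 35.9 in WT. A further WT peak inside the gene, with a fold of 6.68, had no partner.

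The site near the lower end of Bmp7 (chr2:172876686-172877103 in alphaKO), stood at percentile 65.7 of the alphaKO list and 96.6 of the WT list. Outside the gene, the site 46.1 kb below it had a fold of 37.6 in alphaKO and 16.2 in WT, and the site 6.28 kb below it had 15.2 in alphaKO and 7.93 in WT. The seventh shared site lay inside Spo11, a meiotic recombination gene, with folds of 7.90 in alphaKO and 10.5 in WT. A single alphaKO peak outside the gene, with a fold of 4.66, and 2 WT peaks there, with folds of 4.48 and 3.24, had no partner. The weaker of these WT peaks had its summit 55 bases above the higher end of the gene.

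Bmp2, at chr2:133552159-133562896, had 2 peaks in each list. The shared site (chr2:133564813-133565324 in alphaKO) lay 2.18 kb above the gene, with a pileup of 491 and a fold of 40.5 in alphaKO and a pileup of 435 and a fold of 32.4 in WT. An alphaKO peak 4.93 kb above the gene had a fold of 10.4 and no partner. A WT peak with its summit 29 bases below the lower end of the gene had a fold of 5.09 and no partner. Bmp4, a ligand of the follicle and dermis, had its nearest summit 211 kb away in alphaKO and 959.5 kb away in WT.

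**Figure D2:**
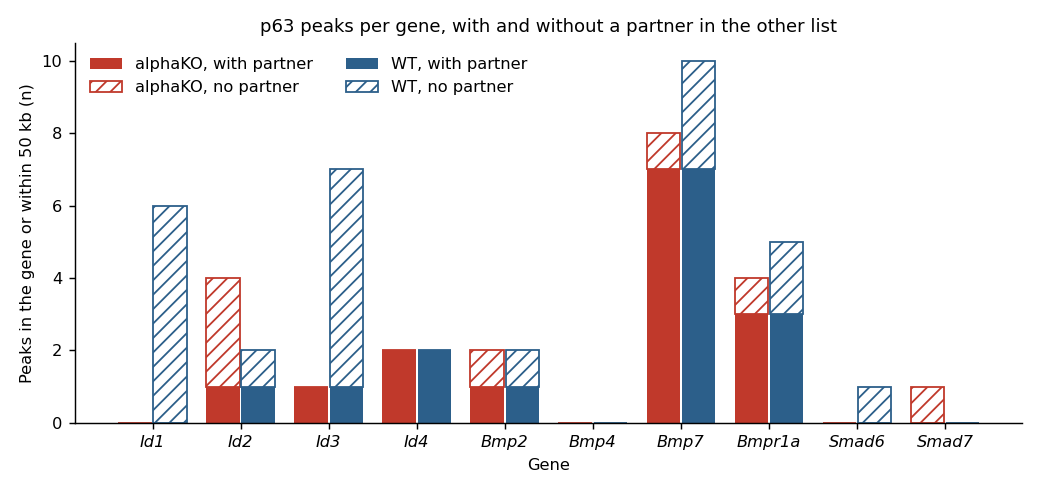
Number of p63 peaks in or within 50 kb of each gene, for alphaKO (left bar) and WT (right bar), split into peaks with a partner in the other list (solid) and without (hatched). Bmp7 has 7 shared sites, while the 6 WT peaks of Id1 and 6 of the 7 WT peaks of Id3 have no partner.

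The receptor gene Bmpr1a, at chr14:34411061-34503336, had 4 alphaKO and 5 WT peaks. The strongest site among all 10 genes was counted for it but lay 31.8 kb below it inside Mmrn2, which encodes an endothelial multimerin. This site (chr14:34378872-34379479 in alphaKO) had a pileup of 1246 and a fold of 192 in alphaKO and a pileup of 936 and a fold of 90.5 in WT. It ranked 18 in the alphaKO list and 11 in the WT list. A second site inside Mmrn2 had folds of 31.7 in alphaKO and 30.5 in WT.

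Closer to Bmpr1a, a shared site 1.24 kb above the gene had its summit at the same base in both lists, with a fold of 17.3 in alphaKO and 12.2 in WT. A WT peak (chr14:34502402-34502865) with a pileup of 51 and a fold of 5.02 covered all 250 bases printed for Bmpr1a, with its summit 191 bases before the listed start, and had no partner. An alphaKO peak 2.75 kb below the gene, with a fold of 6.81, and a WT peak nearest to Fam25c, with a fold of 6.12, also had none. With peaks nearest to another gene left out, Bmpr1a had 2 alphaKO and 2 WT peaks.

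The inhibitory Smad genes each had a peak in a single list. Smad7, at chr18:75367365-75395935, had an alphaKO peak 2.78 kb below the gene (chr18:75364363-75364868) with a pileup of 182, a fold of 32.6 and a local background of 4.61, at percentile 81.3. It was the strongest site without a partner among the 10 genes, and the nearest WT summit lay 174 kb from Smad7. With the alphaKO list divided by fold into 5 groups of equal size, 23.8% of the strongest group, to which this peak belongs, had no partner. The peak lay near the lower edge of that group, and 43.7% of the next-strongest group had no partner. Smad6, at chr9:63953076-64022085, had a WT peak 28.7 kb above the gene with a fold of 3.71, at percentile 10.0, and its nearest alphaKO summit lay 76.8 kb away.

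Taking the 10 genes as a set, 7 of 22 alphaKO peaks (31.8%, 16.4 to 52.7) and 20 of 35 WT peaks (57.1%, 40.9 to 72.0) had no partner, where the whole lists gave 51.6% in alphaKO and 33.4% in WT. Over the whole lists, 61.1% of the weakest and 23.8% of the strongest of the 5 fold groups lacked a partner in alphaKO, as did 80.3% of the weakest and 0.706% of the strongest in WT. In alphaKO the share was highest, at 69.5%, in the second-weakest group. The WT peaks at these genes were mostly weak, with a median fold of 6.63 beside 8.44 in the WT list; the alphaKO peaks had a median of 21.0 beside 15.5. With the share of each of the 5 fold groups applied to the peaks at these genes, 10.3 alphaKO and 14.4 WT peaks would have had no partner. Id1 and Id3 held 12 of the 20 WT peaks without a partner. Without these 2 genes, singled out after their values were seen, 7 of 21 alphaKO peaks (33.3%, 17.2 to 54.6) and 8 of 22 WT peaks (36.4%, 19.7 to 57.1) had no partner.

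All 20 WT peaks without a partner lay in the 3 weaker of the 5 fold groups of the WT list. Few lay elsewhere over the whole list, where the next-strongest group held 125 and the strongest 15 of the 3550 WT peaks without a partner. The 20 had folds of 2.71 to 9.54, at percentiles 2.1 to 56.6 of the WT list. The 7 alphaKO peaks without a partner had folds of 4.66 to 32.6, at percentiles 3.5 to 81.3 of the alphaKO list. Of the 20, 4 had a summit within 1 kb of an end of a protein-coding gene, at Id3, Bmp2, Bmp7 and Bmpr1a, and of the 7 alphaKO peaks 1 had, at Id2. The whole lists gave 5.46% of alphaKO peaks without a partner and 30.2% of WT peaks without a partner that near a gene end. Peaks close to the 50 kb limit were the Bmp7 site at 46.1 kb, the Id2 peak at 47.0 kb and the Bmpr1a peak at 47.1 kb inside it. Outside it lay a Bmp7 site at 50.5 kb in alphaKO and WT with folds of 4.40 in alphaKO and 3.74 in WT. Further Bmp7 peaks with a partner lay at 53.7 kb in alphaKO, with a fold of 20.1, and at 53.8 kb in WT, with 9.24. An Id4 peak of alphaKO lay at 52.4 kb with a fold of 17.8, and an Id3 site at 53.8 kb with folds of 24.8 in alphaKO and 18.8 in WT.

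At the 15 shared sites the summits were a median of 3 bp apart, and apart from the weaker Id4 site the largest gap was 20 bp. The fold was higher in alphaKO at 10 of the 15, and at 83.7% of the 7054 sites listed in both libraries genome-wide. The local background was lower in alphaKO over the lists, with a median of 5.81 in alphaKO and 8.31 in WT, and its part in the folds was not tested. Ranks among the 7054 shared sites, which give both libraries the same number of sites, were therefore compared as a description. By that rank, 4 of the 15 sites stood higher in alphaKO and 11 in WT, where 48.5% of all 7054 shared sites stood higher in alphaKO and 51.4% in WT. Some of the 11 differed little. The strongest site inside Mmrn2 stood at percentile 99.8 in alphaKO and 99.9 in WT, and a Bmp7 site at 27.7 in alphaKO and 30.3 in WT.

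The 4 were both Id4 sites and the Bmp7 sites at 46.1 and 6.28 kb. The main Id4 site stood at percentile 97.0 of the shared sites in alphaKO and 67.0 in WT, and 8.48% of the 7054 sites differed by as much or more in this direction. The largest difference in the other direction was at the Bmp7 site near the lower end of the gene, at percentile 51.0 in alphaKO and 94.8 in WT. The Id3 site stood at 48.9 in alphaKO and 81.2 in WT, and the Id2 site at 64.1 in alphaKO and 94.1 in WT. Over all shared sites, the middle 50% of such differences lay between −12.6 and 12.0 percentile points.

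**Figure D3:**
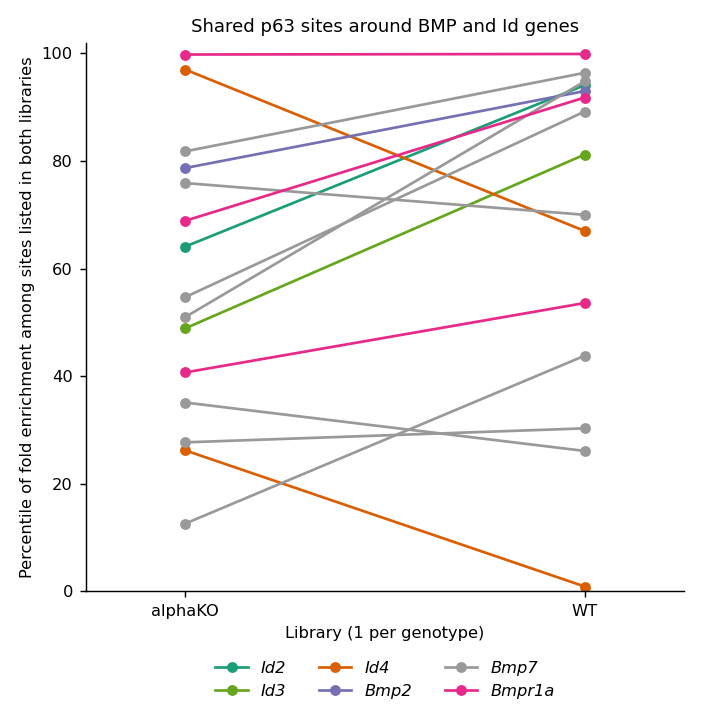
Percentile of fold enrichment among the 7054 sites listed in both libraries, for the 15 shared sites around these genes, with alphaKO at the left and WT at the right and 1 line per site. Both Id4 lines slope down to WT, while the Id2, Id3, Bmp2 and most Bmp7 lines slope up to WT.

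Other genes of the BMP and transforming growth factor beta (TGF-beta) pathways were counted the same way. Of 64 such genes, 46 (71.9%) had an alphaKO summit and 46 (71.9%) a WT summit within 50 kb, 38 in both lists, 8 in alphaKO only, 8 in WT only and 10 in neither. Over all protein-coding genes the shares were 55.1% for alphaKO and 47.1% for WT. The 64 genes had a median length of 30.1 kb, beside 17.2 kb over all genes, so their windows were wider, and the counts were not matched on length. Folds below are those of a gene's strongest peak in each list, which need not be the same site and can lie nearer to another gene. Genes with peaks in both lists were chosen by their WT fold, and Bmpr1b, Cer1, Fst, Smad3 and Msx2 are named in addition. They are not always named in order of WT fold, and the order by alphaKO fold can differ.

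Ligand genes other than Bmp2, Bmp4 and Bmp7 had the smallest share with a summit among the 6 roles, in both lists. Of those 3, left out here as members, 2 had a summit in each list. Of the 13 ligand genes counted here, 6 had an alphaKO and 3 a WT summit. A single gene, Tgfb3, had both, with folds of 16.6 in alphaKO and 8.64 in WT at peaks nearest to Ift43. Gdf7 (19.5, at a peak nearest to Hs1bp3), Bmp6 (14.2) and Gdf5 (10.5) had peaks in alphaKO only. Of 13 receptor and co-receptor genes, 12 had an alphaKO and 12 a WT summit. By WT fold the first were Acvrl1, with folds of 53.2 in alphaKO and 53.1 in WT at a site nearest to its neighbour Acvr1b, and the co-receptor gene Rgma, with 44.2 in alphaKO and 33.0 in WT. Bmpr1b, a type I BMP receptor gene, had 51.0 in alphaKO, above Rgma, and 16.0 in WT. Among the TGF-beta receptor genes, Tgfbr3 had 27.6 in alphaKO and 16.9 in WT and Tgfbr1 had 34.2 in alphaKO and 16.8 in WT. Rgmb had a peak in alphaKO only (5.61) and Acvr2a in WT only (3.38, nearest to Orc4).

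Of the 6 signalling Smad genes, 5 had an alphaKO and 6 a WT summit. Smad5, which carries BMP signals, had folds of 28.2 in alphaKO and 13.3 in WT, and Smad1, its close relative, 21.7 in alphaKO and 8.98 in WT. The common partner Smad4 had 15.9 in alphaKO and 11.0 in WT, and Smad2, of the TGF-beta branch, had 20.2 in alphaKO and 9.40 in WT. By alphaKO fold Smad3 stood first among these genes, with 48.7 at a peak nearest to Aagab, beside 8.16 in WT. Neither of these Smad3 peaks had a partner. Smad9 had a peak in WT only (11.3).

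Of 15 genes of extracellular antagonists and ligand-binding modulators, 8 had an alphaKO and 10 a WT summit. By WT fold the first were Fstl3, with 66.8 in alphaKO and 34.2 in WT, Bmper, with 34.4 in alphaKO and 19.5 in WT, Twsg1, with 27.4 in alphaKO and 18.5 in WT, and Crim1, with 38.5 in alphaKO and 14.1 in WT. By alphaKO fold, Cer1, with 52.9 in alphaKO and 7.39 in WT, stood second among these genes, and Fst, with 29.8 in alphaKO and 10.65 in WT, stood above Twsg1. A single gene of the 15 had peaks in alphaKO only and 3 had peaks in WT only, among them Chrd (7.82) and Sost (3.93) at peaks nearest to another gene. Nog, which encodes noggin, had none in either list.

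Of 8 intracellular modulators, 7 had a summit in each list. Smurf1, a ubiquitin ligase for BMP Smads, had folds of 25.7 in alphaKO and 13.0 in WT. The repressor gene Ski had 29.7 in alphaKO, at a peak nearest to Faap20, and 11.8 in WT, at another nearest to Morn1. The ubiquitin ligase gene Nedd4l had 25.6 in alphaKO and 8.72 in WT, and the phosphatase gene Ppm1a had 17.6 in alphaKO and 7.84 in WT. Of 9 target genes, 8 had an alphaKO and 8 a WT summit, led by Dlx3, a homeobox gene, with 81.4 in alphaKO and 60.1 in WT at a site nearest to Itga3. Atoh8 had 36.1 in alphaKO and 21.5 in WT, and Runx2 12.6 in alphaKO and 14.2 in WT. Lef1 had 23.6 in alphaKO, at a peak inside the gene, and 17.8 in WT, at another nearest to Hadh. Msx2 stood second by alphaKO fold, with 43.1 at a peak nearest to Gm38564, beside 11.5 in WT. Msx1 had a peak in alphaKO only (16.3) and Hey1 in WT only (2.71, nearest to LOC115489673).

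**Figure D4:**
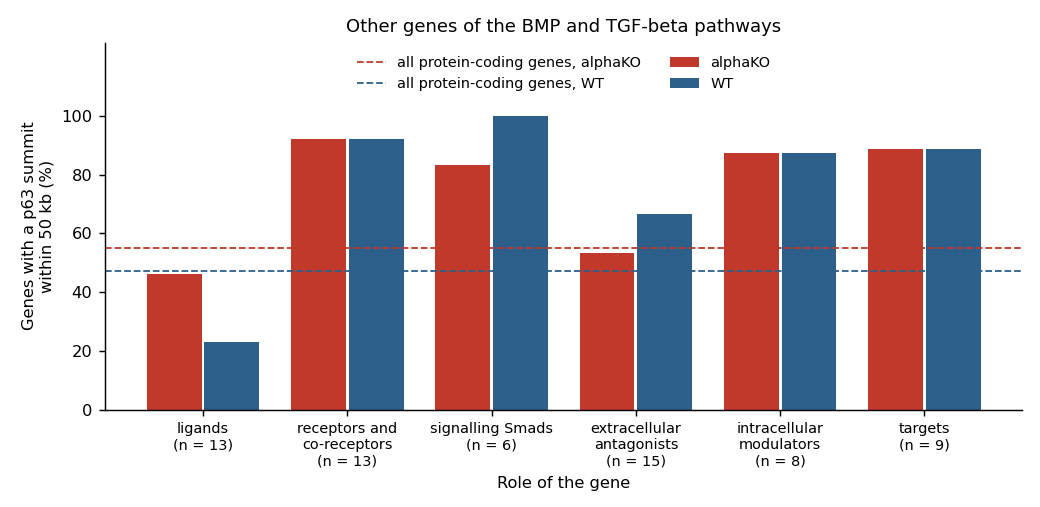
Percentage of other BMP and TGF-beta pathway genes with a p63 summit in the gene or within 50 kb, by role, for alphaKO (left bar) and WT (right bar). Dashed lines give the share over all protein-coding genes, 55.1% for alphaKO and 47.1% for WT. Ligand genes, counted without Bmp2, Bmp4 and Bmp7, lie below both lines.

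Peaks mark binding and not transcripts, so they do not show which cells were present. Of 5 basal keratinocyte genes (Krt5, Krt14, Trp63, Itga6 and Col17a1), 5 had a summit within 50 kb in each list. Of 5 genes each of melanocytes, dermal fibroblasts and immune cells, 3, 3 and 3 had one in alphaKO and 2, 1 and 2 in WT. Among all protein-coding genes, 55.1% had one in alphaKO and 47.1% in WT. Read totals are unknown from peak lists.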

How the data were processed

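Newborn epidermis was profiled by ChIP for p63, with 1 library per genotype; 4 samples, inputs included, make up the series. The tools named by the submitters' processing notes are Bowtie2, with no version, and MACS2 2.1.1.20160309, for the mm10 build; caller options, duplicate handling and control libraries were not given in the sources used here. Each deposited peak has, per the file headers, a pileup (a coverage signal), a fold enrichment (a ratio), and −log10 of the p-value and of the q-value, from 1 library per list and without pooling. Lowest −log10 q values were 1.36 in alphaKO and 1.31 in WT. Fold enrichment depends on the local background of each call, which differed between the lists, so folds were ranked within lists; the part of the background in the folds was not tested.

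Computed here were distances to genes, partners, percentiles, and local background, obtained by dividing pileup + 1 by the fold and subtracting 1. Genes and promoters came from RefSeq tables of GRCm38.p6, which give no exons, so exonic or intronic positions were not analysed. All 10 members and 64 further genes matched. Text names all members, and Bmpr1b, Cer1, Fst, Smad3 and Msx2 beside the rule for other genes. By role, that rule takes up to 4 with peaks in both lists by WT fold and up to 3 with peaks in a single list. A result this rule takes is not reported here. Members and lists were chosen with earlier results of these data known. The code for partners and for summits near genes was tested on shifted copies of WT peaks and on planted summits. Alternatives covered thresholds, list length, distance, nearest gene, background and partner definition. Software was SciPy 1.17.1, pandas 2.3.3, NumPy 2.4.6 and matplotlib 3.10.9 under Python 3.11.15.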

Additional observations from a re-analysis of the deposited data

How the results depend on the processing

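No paired analysis was possible because each genotype had 1 ChIP library. Main results were recomputed under each alternative, and 58 values kept to the 95% interval of a share or to a factor of 1.5 for a count, whereas 4 did not, all through the distance to the gene. The count of alphaKO peaks became 13 with flanks of 10 kb and 35 with flanks of 100 kb, the count of WT peaks became 19 with flanks of 10 kb, and the count of the 10 genes with a WT peak became 5 with flanks of 10 kb. For peaks of single genes these numbers were 121 and 19. Id1 kept 0 alphaKO peaks under every alternative run except flanks of 100 kb, which gave 2, and its WT peaks numbered 4 to 7. The alphaKO peaks of Id3 became 5 with flanks of 100 kb, beside 9 in WT, and its WT peaks became 5 at −log10 q of at least 10, 4 with flanks of 10 kb and 3 at a fold of at least 5. The share of alphaKO peaks without a partner ranged from 26.3% with equal list lengths (46.9% over the whole list) to 40.9% with 50% overlap of both peaks (54.2% over the whole list). That of WT peaks ranged from 44.0% at a fold of at least 5 (21.8% over the whole list) to 62.9% with 50% overlap (37.0% over the whole list). With equal list lengths the WT share was 60.0%, and that over the whole WT list rose to 46.9%, from 33.4% in the main run. Read depth is unknown, so an absent peak gives no upper limit on binding.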
